A study of Mus musculus with 8 samples.

Results

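The genes described here are 52 regulators and effectors of mitosis and of the cell division cycle, read on 8 microarrays of mouse tibialis anterior, a muscle at the front of the shin made mostly of fast fibres. They were taken by symbol from the array annotation, using only probe sets with a single symbol and, for a gene with several, the brightest of them on average across the 8 arrays. Of the 52 genes 50 were measured, among 14860 genes with such a probe set; Ccnb1 and Cenpf are not analysed here. Every muscle came from male mice aged 8 weeks that lack ATF4 in skeletal muscle (ATF4 mKO), so the deletion is common to both groups. In the control group (4 arrays) the left muscle had received the empty plasmid pcDNA3, and in the Gadd45a group (4 arrays) the right muscle had received pCMV-FLAG-Gadd45a, which makes tagged Gadd45a from a viral promoter; both were taken on day 7. Gadd45a is a small stress-induced nuclear protein, and its forced presence is compared with empty plasmid. Plasmid and side cannot be told apart, nor can Gadd45a itself and the making of any tagged protein. Which promoter drove the deletion is not stated in the labels. Nor do they say that the 4 arrays in a group are 4 different mice, so the p-values only reflect how far these arrays scatter, some of which may be technical, and precision is limited by having 4 arrays a side.

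Mature muscle fibres have left the cell cycle, and dividing cells in muscle are mainly found among the mononuclear cells between fibres, such as satellite cells, fibroblasts, vessel cells and immune cells. Progress through the cycle is driven by cyclin-dependent kinases (Cdks). D-type cyclins with Cdk4 and Cdk6 and E-type cyclins with Cdk2 act in G1 and at entry to DNA synthesis, while cyclins A and B with Cdk1 drive mitosis. Many mitotic genes are held silent in resting cells by the DREAM complex and switched on by B-Myb and Foxm1 through a promoter element called the cell cycle homology region, often with CCAAT boxes bound by NF-Y beside it, whereas E2f factors act on genes of DNA synthesis.

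All values are log2 intensities as deposited, and a log2 fold change is the Gadd45a mean minus the control mean. Whole muscle was measured, so more cells of a type and more RNA per cell cannot be told apart. Gadd45a itself differed by 2.57 (SE 0.080, limma adjusted p = 7.74e-07), all 4 Gadd45a arrays lying above all 4 controls. How far its probe set reads plasmid and endogenous transcripts was not examined, and they are not told apart here. The Atf4 probe set differed by 0.54 (SE 0.078, limma adjusted p = 0.00136), also without overlap of the groups. The 12 measured genes of fast muscle fibres averaged 11.49 to 11.65 log2 units on control arrays and 11.35 to 11.42 on Gadd45a arrays. Array medians ran from 5.85 to 5.92. Correlations between arrays were 0.979 to 0.986 among controls, 0.986 to 0.989 among Gadd45a arrays and 0.963 to 0.975 between groups. Control 1 lay apart on the second principal component (23.2, against -11.6 to 4.06 for the other arrays), and counts without it are given below.

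Of the 50 measured genes 31 rose and 1 fell at a limma adjusted p under 0.05, adjusted over all 16755 probe sets. Over all probe sets 10.8% rose and 10.3% fell, 21.1% in either direction. Without control 1 the counts for the 50 genes were 27 and 1. The median log2 fold change was 0.46 over the 50 genes and -0.065 over all probe sets. In each of the 31 genes that rose the Gadd45a arrays all lay above the control arrays, and in the 1 that fell, Ccnd2, they all lay below; over all probe sets such separation was seen upward in 13.1% and downward in 13.8%. The increases were moderate: 18 of the 31 were at least 1.5-fold, 1 (E2f8) was at least 2-fold, and the median was 1.58-fold. The 37 measured genes that act in mitosis held 27 of the increases and no decrease (median 0.55), and the 13 genes of G1, Cdk inhibition and E2f held 4 increases and 1 decrease (median 0.16). The difference between these counts was not tested. Most of the genes were dim, 31 of 50 lying at or below the median brightness of all probe sets. Of the 31 dimmer genes 20 rose, against 4.2% of all dimmer probe sets, and of the 19 brighter genes 11 rose, against 17.5% of all brighter ones.

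**Figure D1:**
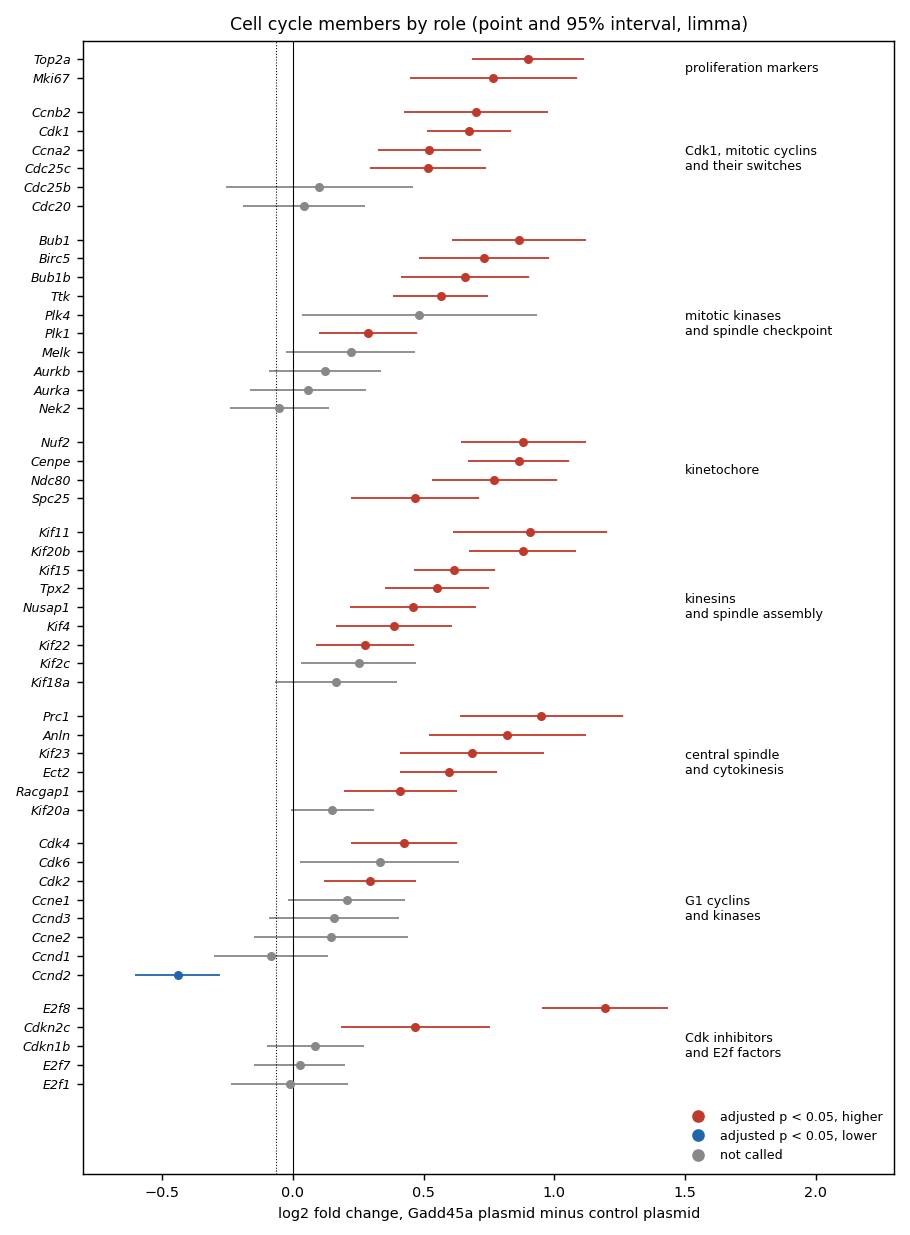
Difference in mean log2 intensity (Gadd45a arrays minus control arrays, horizontal axis) for the 50 measured genes in blocks by role, with 95% intervals from limma; red points passed upward, blue downward and grey did not pass, and the dotted line is the median of all probe sets (-0.065). E2f8 lies farthest right at 1.19, and Ccnd2 is the single blue point at -0.44.

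The stretches just before the starts of 7 genes are shown because they carry, or lack, the elements of mitotic promoters named above. RefSeq promoter windows (build GRCm38.p6, 250 bases before to 50 after the annotated start) were found for 44 of the 52 genes, the others being Ccna2, Cdc25c, Aurkb, Tpx2, Kif20a, Ccnd1, Ccnd2 and Ccne2. Capitals mark the CCAAT box, searched on both strands and so also printed as ATTGG. They also mark the cell cycle homology region, searched as TTTGAA and printed as TTCAAA where it lies on the opposite strand. The variant TTTAAA was counted as well. Each run is the 120 bases before the start, 5′ to 3′ on the gene's strand. The first 5 genes rose, and Cdc20 and E2f7 did not pass.
Cdk1: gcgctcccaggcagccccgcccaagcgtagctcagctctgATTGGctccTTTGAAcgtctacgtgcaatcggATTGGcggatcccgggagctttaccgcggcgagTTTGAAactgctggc
Top2a: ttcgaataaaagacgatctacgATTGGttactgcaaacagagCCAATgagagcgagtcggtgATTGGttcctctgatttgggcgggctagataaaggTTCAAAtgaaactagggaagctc
Kif11: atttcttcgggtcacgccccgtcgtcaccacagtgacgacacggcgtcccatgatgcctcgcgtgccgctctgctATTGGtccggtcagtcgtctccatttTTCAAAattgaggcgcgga
Prc1: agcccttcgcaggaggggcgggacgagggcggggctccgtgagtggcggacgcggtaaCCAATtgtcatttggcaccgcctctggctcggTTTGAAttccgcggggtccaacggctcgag
E2f8: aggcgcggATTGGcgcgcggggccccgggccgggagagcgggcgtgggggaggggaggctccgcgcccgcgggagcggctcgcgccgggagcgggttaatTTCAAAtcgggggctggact
Cdc20: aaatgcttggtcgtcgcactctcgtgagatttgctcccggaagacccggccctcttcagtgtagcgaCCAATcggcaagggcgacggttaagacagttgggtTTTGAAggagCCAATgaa
E2f7: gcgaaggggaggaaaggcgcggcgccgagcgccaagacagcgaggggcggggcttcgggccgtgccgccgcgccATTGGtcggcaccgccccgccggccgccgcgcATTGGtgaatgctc
The Cdk1 stretch is chr10:69352913-69353032 on the minus strand, that of Top2a chr11:99024190-99024309 on the minus strand, that of Kif11 chr19:37376262-37376381 on the plus strand and that of Prc1 chr7:80294356-80294475 on the plus strand. The E2f8 stretch is chr7:48881597-48881716 on the minus strand, that of Cdc20 chr4:118437344-118437463 on the minus strand and that of E2f7 chr10:110745319-110745438 on the plus strand. In Top2a a CCAAT box begins 35 bases before the homology region, in Prc1 32 bases and in Kif11 26 bases. Cdc20 carries the same pair at 35 bases, yet its transcript did not pass, as described below. In E2f8 the only CCAAT box shown begins 92 bases before the homology region, and the E2f7 stretch holds CCAAT boxes without the homology letters.

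Among the 28 genes that rose and have a window, 20 (71.4%) held CCAAT, 22 (78.6%) held the homology letters and 17 (60.7%) held both, on either strand. A gene with several annotated starts has several windows of 300 bases, and a match in any of them counted. To count as both, the matches had to lie in the same window. Among the 14 measured genes that did not rise, 7 (50%) held CCAAT, 6 (42.9%) the homology letters and 3 (21.4%) both. The shares over all 27025 genes with a window were 41.1%, 30.6% and 12.2%. Letters of E2f sites (TTTGGCGC, TTTCGCGC or TTCCCGC, either strand, which may overlap one another) were in 4 of the 28 and 3 of the 14, against 6.1% of all genes. These are matches of short letters and a description, and the shares were not tested against each other.

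**Figure D2:**
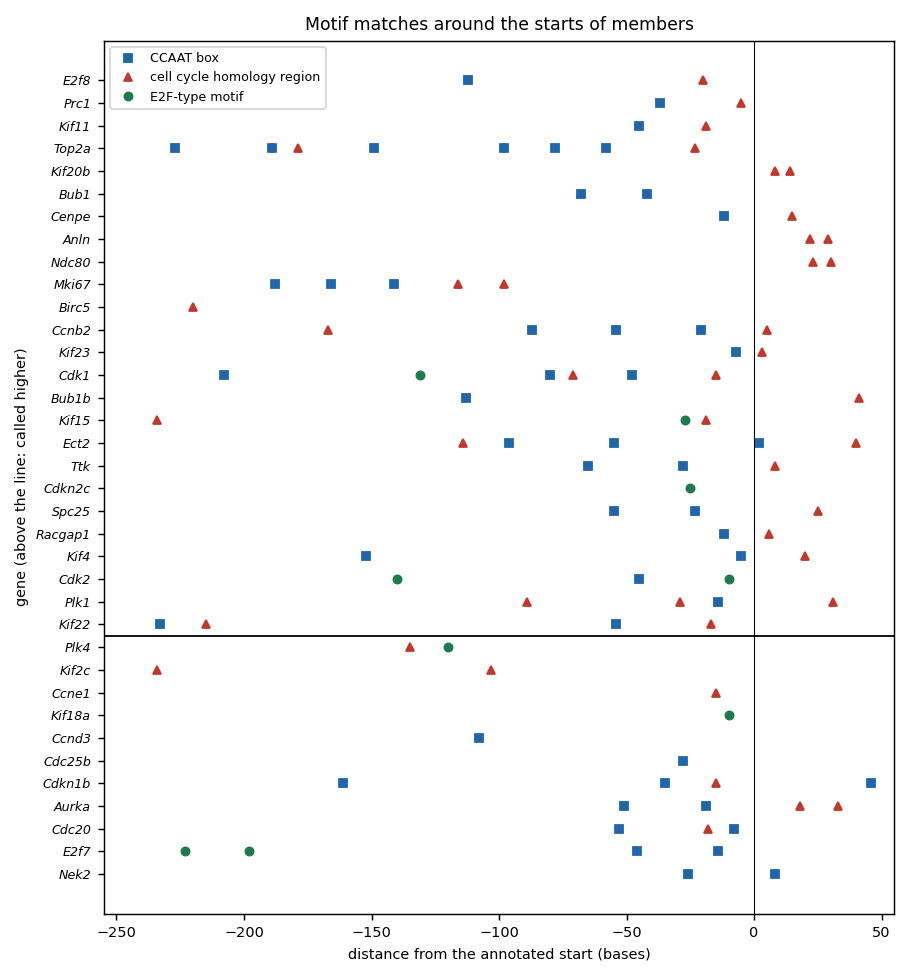
Positions of motif matches (bases from the annotated start, horizontal axis) in the first listed RefSeq window of the 36 measured genes with at least 1 match there; 25 genes that rose stand above the line and 11 that did not pass stand below it. Blue squares are CCAAT, red triangles the cell cycle homology region and green circles E2f-type letters. Of the squares 80% and of the triangles 83.3% lie no more than 120 bases before the start or after it.

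The general markers of proliferating cells rose. Top2a, the topoisomerase that untangles sister chromosomes, read 6.53, 6.80, 6.85 and 6.76 on the control arrays and 7.52, 7.52, 7.76 and 7.74 on the Gadd45a arrays, a difference of 0.90 (SE 0.096, limma adjusted p = 0.000278). Mki67, which coats mitotic chromosomes and is the usual stain for dividing cells, read 7.99, 8.11, 8.10 and 8.56 on control and 8.72, 8.83, 9.17 and 9.10 on Gadd45a arrays (0.77, SE 0.14, adjusted p = 0.00508). The groups did not overlap for either gene, and control 4 came nearest to the Gadd45a arrays for Mki67.

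Among Cdk1, its cyclins and their switches, 4 of 6 measured genes rose and none fell (66.7% rose, beside 10.8% of all probe sets). Cdk1, the kinase that triggers mitosis, read 5.64, 5.62, 5.61 and 5.57 with control plasmid and 6.30, 6.13, 6.33 and 6.37 with Gadd45a plasmid, a difference of 0.67 (SE 0.071, limma adjusted p = 0.000271), or 1.6-fold. Its control values lay close together, and all Gadd45a values stood clear of them. Ccnb2, a B-type cyclin, went from 5.93, 6.13, 6.19 and 6.12 on control arrays to 6.47, 6.76, 7.06 and 6.90 on Gadd45a arrays (0.70, SE 0.12, adjusted p = 0.0037). Ccna2, the cyclin A of dividing body cells, went from 5.94, 5.89, 6.03 and 6.09 on control arrays to 6.69, 6.42, 6.54 and 6.38 on Gadd45a arrays (0.52, SE 0.087, adjusted p = 0.00292). The phosphatase gene Cdc25c, whose product activates Cdk1, went from 4.47, 4.58, 4.81 and 4.82 on control arrays to 5.24, 5.14, 5.31 and 5.06 on Gadd45a arrays (0.52, SE 0.099, adjusted p = 0.006). For these 3 genes too the groups were apart, most narrowly for Cdc25c. Its relative Cdc25b (0.10, 95% interval -0.26 to 0.46) did not pass. Cdc20, which starts anaphase by activating the anaphase-promoting complex, read 4.94, 5.15, 4.75 and 4.72 on control arrays and 4.80, 4.94, 4.98 and 5.02 on Gadd45a arrays, with the groups intermixed (0.043, 95% interval -0.19 to 0.28, adjusted p = 0.788).

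Mitotic kinases and spindle checkpoint genes were split, with 5 of 10 rising and none falling (50% rose, beside 10.8% of all probe sets). Bub1, a checkpoint kinase at the kinetochore, read 4.25, 4.23, 4.49 and 4.52 on control arrays and 5.11, 5.03, 5.38 and 5.43 on Gadd45a arrays (0.87, SE 0.11, limma adjusted p = 0.000829). Birc5, known as survivin and the partner of the Aurora B kinase at the centromere, read 5.73, 5.88, 5.62 and 5.90 on control arrays and 6.27, 6.44, 6.73 and 6.61 on Gadd45a arrays (0.73, SE 0.11, adjusted p = 0.00181). For Bub1b, which blocks Cdc20 until chromosomes are attached, the arrays read 5.49, 5.19, 5.11 and 5.35 on control arrays and 5.75, 5.88, 6.13 and 6.01 on Gadd45a arrays (0.66, SE 0.11, adjusted p = 0.00278). All Gadd45a arrays exceeded all control arrays in these genes, with Gadd45a 3 and 4 the highest. Ttk, the kinase that sets the checkpoint in motion, read 4.41, 4.54, 4.74 and 4.52 on control arrays and 5.09, 5.07, 5.15 and 5.17 on Gadd45a arrays (0.57, SE 0.080, adjusted p = 0.00124). Plk1, a master kinase of mitosis, passed narrowly, at 5.64, 5.39, 5.48 and 5.57 on control and 5.74, 5.84, 5.70 and 5.95 on Gadd45a arrays (0.29, SE 0.084, adjusted p = 0.0371). Its second, dimmer probe set read -0.08 (SE 0.12, adjusted p = 0.659), and the mean of both did not pass (adjusted p = 0.444). The Plk1 call was also lost without control 2, 3 or 4 or Gadd45a 1, 2 or 4 (adjusted p = 0.0569 to 0.0940) and with sample number as a block (adjusted p = 0.0585).

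The Aurora kinases did not pass. Aurka, which builds the spindle poles, read 6.13, 6.15, 6.27 and 6.35 on control and 6.32, 6.11, 6.52 and 6.19 on Gadd45a arrays (0.059, 95% interval -0.16 to 0.28), and Aurkb, which corrects chromosome attachment, differed by 0.12 (95% interval -0.092 to 0.34). Nek2, a centrosome kinase, read 5.20, 5.03, 4.91 and 4.99 on control arrays and 4.97, 5.04, 5.07 and 4.85 on Gadd45a arrays (-0.052, 95% interval -0.24 to 0.14). For Plk4, which starts centriole duplication, the estimate was 0.48 but the arrays were scattered, with Gadd45a 3 at 5.78 and the other Gadd45a arrays between 5.06 and 5.31, and it did not pass (SE 0.20, limma adjusted p = 0.112). The kinase gene Melk (0.22, adjusted p = 0.173) did not pass either, though it did with cyclic loess (adjusted p = 0.0487).

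All 4 measured kinetochore genes rose, beside 10.8% of all probe sets. Nuf2 and Ndc80 are subunits of the complex that grips microtubules. The first read 4.66, 4.97, 5.06 and 4.97 with control plasmid and 5.74, 5.64, 5.99 and 5.81 with Gadd45a plasmid (0.88, SE 0.11, limma adjusted p = 0.000553), and Ndc80 read 4.82, 5.13, 5.04 and 5.26 on control arrays and 5.70, 5.77, 6.02 and 5.85 on Gadd45a arrays (0.77, SE 0.11, adjusted p = 0.00106). Spc25, another subunit, moved less, from 5.46, 5.58, 5.98 and 5.77 on control arrays to 6.18, 6.10, 6.26 and 6.12 on Gadd45a arrays (0.47, SE 0.11, adjusted p = 0.0156), and control 3 lay close under the lowest Gadd45a array. Cenpe, the kinesin that carries chromosomes to the spindle equator, read 5.13, 5.31, 5.45 and 5.23 on control arrays and 6.11, 6.03, 6.21 and 6.22 on Gadd45a arrays (0.86, SE 0.086, adjusted p = 0.000199). In all 4 genes control 1 had the lowest value.

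Of 9 kinesins and spindle assembly genes 7 rose (77.8%, beside 10.8% of all probe sets). Kif11, the motor that pushes spindle poles apart, read 5.12, 5.16, 5.43 and 5.60 on control arrays and 6.19, 5.99, 6.32 and 6.44 on Gadd45a arrays (0.91, SE 0.13, limma adjusted p = 0.00136), a 1.88-fold difference. Kif20b, a motor of late cell division, read 4.95, 5.13, 5.32 and 4.996 on control arrays and 5.91, 5.92, 6.02 and 6.07 on Gadd45a arrays (0.88, SE 0.091, adjusted p = 0.000246). Kif15, which acts beside Kif11, read 4.74, 4.69, 4.71 and 4.89 on control arrays and 5.32, 5.38, 5.41 and 5.38 on Gadd45a arrays (0.62, SE 0.069, adjusted p = 0.000338). The groups did not overlap in these 3 genes, and the Gadd45a arrays of Kif15 lay close together. Tpx2, which seeds microtubules around chromosomes and activates Aurka, read 5.46, 5.26, 5.59 and 5.58 on control arrays and 5.997, 5.94, 6.05 and 6.11 on Gadd45a arrays (0.55, SE 0.089, adjusted p = 0.00238). The microtubule binder Nusap1 (0.46) and the chromosome motors Kif4 (0.39) and Kif22 (0.28) rose less. Kif4 lost its call without control 1, control 2 or Gadd45a 3 (adjusted p = 0.0532 to 0.0555). Kif22 lost its call without any single array except control 2 (adjusted p = 0.0576 to 0.111), and with sample number as a block (adjusted p = 0.0644). Kif18a (0.17, 95% interval -0.067 to 0.40), which damps chromosome movement, did not pass, nor did the microtubule-shortening Kif2c (0.25, adjusted p = 0.097), which passed with quantile normalization (0.0317) and cyclic loess (0.0271).

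Of 6 genes of the central spindle and cytokinesis 5 rose (83.3%, beside 10.8% of all probe sets). Prc1, which bundles microtubules between the separating chromosomes, read 5.42, 5.04, 5.50 and 5.33 on control arrays and 5.997, 6.12, 6.49 and 6.47 on Gadd45a arrays (0.95, SE 0.14, limma adjusted p = 0.00145). Anln, an actin binder of the cleavage furrow, read 5.14, 5.17, 5.51 and 5.30 on control arrays and 6.24, 5.73, 6.30 and 6.12 on Gadd45a arrays (0.82, SE 0.13, adjusted p = 0.00256). Gadd45a 2 was the lowest Gadd45a array for Anln yet still above control 3, the highest control. Kif23, a motor of the centralspindlin complex, read 5.04, 5.09, 5.18 and 5.48 on control arrays and 5.77, 5.68, 6.06 and 6.02 on Gadd45a arrays (0.68, SE 0.12, adjusted p = 0.00421). Ect2, the exchange factor that switches on RhoA at the furrow, read 4.78, 4.83, 4.95 and 5.01 on control arrays and 5.49, 5.34, 5.57 and 5.56 on Gadd45a arrays (0.60, SE 0.082, adjusted p = 0.00106). Racgap1, the partner of Kif23 in centralspindlin, differed by 0.41 (SE 0.096, adjusted p = 0.0149). Kif20a, another central spindle motor, read 0.15 (95% interval -0.0063 to 0.31) and did not pass.

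**Figure D3:**
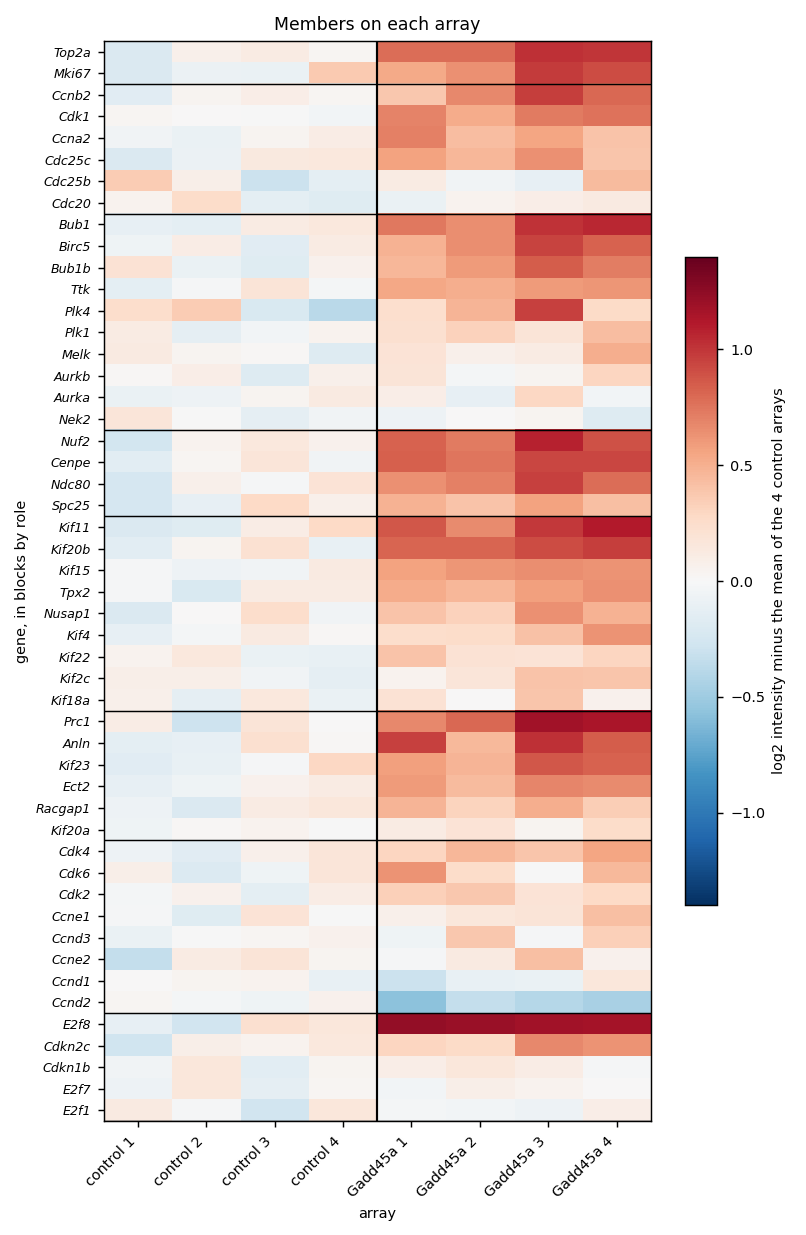
Colour gives the log2 intensity of each measured gene (rows, blocks by role as in the plot of fold changes, sorted by fold change within a block) on each array (columns), minus the mean of the 4 control arrays. The Gadd45a columns are red over most mitotic blocks, palest for Cdc20, Aurka and Nek2, and Ccnd2 is the blue row.

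The arrays within a group were not alike. Of the 27 mitotic genes that rose, 16 had their highest Gadd45a value on Gadd45a 3 and 9 on Gadd45a 4, while 13 had the lowest on Gadd45a 2 and 10 on Gadd45a 1. On the control side 16 had their lowest value on control 1, and the highest fell on control 3 in 12 genes and on control 4 in 11. The genes thus share part of their spread between arrays and are not independent measurements. The mean over all 50 genes nevertheless ran from 5.55 to 5.65 log2 units on control arrays and from 5.97 to 6.11 on Gadd45a arrays, without overlap.

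Of 8 measured G1 cyclins and kinases, Cdk4 and Cdk2 rose and Ccnd2 fell (25% and 12.5%, beside 10.8% and 10.3% of all probe sets). The count that rose ran from 0 to 3 over the fits without an array or a same-numbered pair, and it was 1 without control 1, control 3 or Gadd45a 1, 2 or 4. Ccnd2, a D-type cyclin, read 8.01, 7.96, 7.93 and 8.04 on control arrays and 7.41, 7.65, 7.59 and 7.53 on Gadd45a arrays (-0.44, SE 0.072, limma adjusted p = 0.00263), 1.36-fold lower. Cdk4, a kinase partner of the D-type cyclins, read 7.02, 6.94, 7.16 and 7.26 on control arrays and 7.40, 7.56, 7.48 and 7.65 on Gadd45a arrays (0.43, SE 0.091, adjusted p = 0.00999). For Cdk4 and for Ccnd2, the groups did not overlap. Cdk2, the partner of cyclins E and A, read 5.55, 5.64, 5.44 and 5.68 on control arrays and 5.91, 5.96, 5.76 and 5.85 on Gadd45a arrays (0.29, SE 0.078, adjusted p = 0.0264). The Cdk2 call was lost without control 1, control 3 or Gadd45a 1, 2 or 4 (adjusted p = 0.0543 to 0.0696).

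The other D-type cyclins did not pass. Ccnd1 read 7.15, 7.19, 7.19 and 7.04 on control and 6.85, 7.04, 7.04 and 7.30 on Gadd45a arrays, with overlap (-0.083, 95% interval -0.30 to 0.13), and Ccnd3 differed by 0.16 (95% interval -0.091 to 0.41). Whether the D-type cyclins differ in their change was not tested, because they were set side by side after their values were seen. Cdk6, the other partner of D-type cyclins, read 0.33 with overlapping groups (SE 0.14, limma adjusted p = 0.109) and passed only when Gadd45a 3 was left out (0.0356). The E-type cyclins, which open DNA synthesis, did not pass, with Ccne1 at 0.21 (95% interval -0.019 to 0.43) and Ccne2 at 0.15 (95% interval -0.15 to 0.44).

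Among Cdk inhibitors and E2f factors the largest increase of all 50 genes was found in E2f8. E2f8 is an atypical E2f that represses transcription. It read 5.82, 5.68, 6.16 and 6.10 on control arrays and 7.17, 7.15, 7.12 and 7.10 on Gadd45a arrays, a difference of 1.19 (SE 0.11, limma adjusted p = 0.000139), or 2.29-fold. The Gadd45a values lay close together, and all stood far above the highest control array, control 3. E2f7, the closest relative of E2f8 and also a repressor, read 5.42, 5.65, 5.37 and 5.52 on control arrays and 5.45, 5.58, 5.54 and 5.50 on Gadd45a arrays (0.026, 95% interval -0.15 to 0.20), and E2f1, the classical activator of S-phase genes, read 5.74, 5.60, 5.35 and 5.78 on control arrays and 5.59, 5.57, 5.54 and 5.71 on Gadd45a arrays (-0.012, 95% interval -0.24 to 0.21). The groups overlapped for both. These genes were likewise set beside E2f8 after their values were seen, and the difference in change was not tested. Cdkn2c, an inhibitor of Cdk4 and Cdk6, rose from 6.26, 6.63, 6.60 and 6.70 on control arrays to 6.85, 6.82, 7.23 and 7.18 on Gadd45a arrays (0.47, SE 0.13, limma adjusted p = 0.0288). Its call was lost without control 1, Gadd45a 3 or Gadd45a 4 (adjusted p = 0.0592 to 0.0778). Cdkn1b, the inhibitor p27, did not pass (0.086, 95% interval -0.10 to 0.27).

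**Figure D4:**
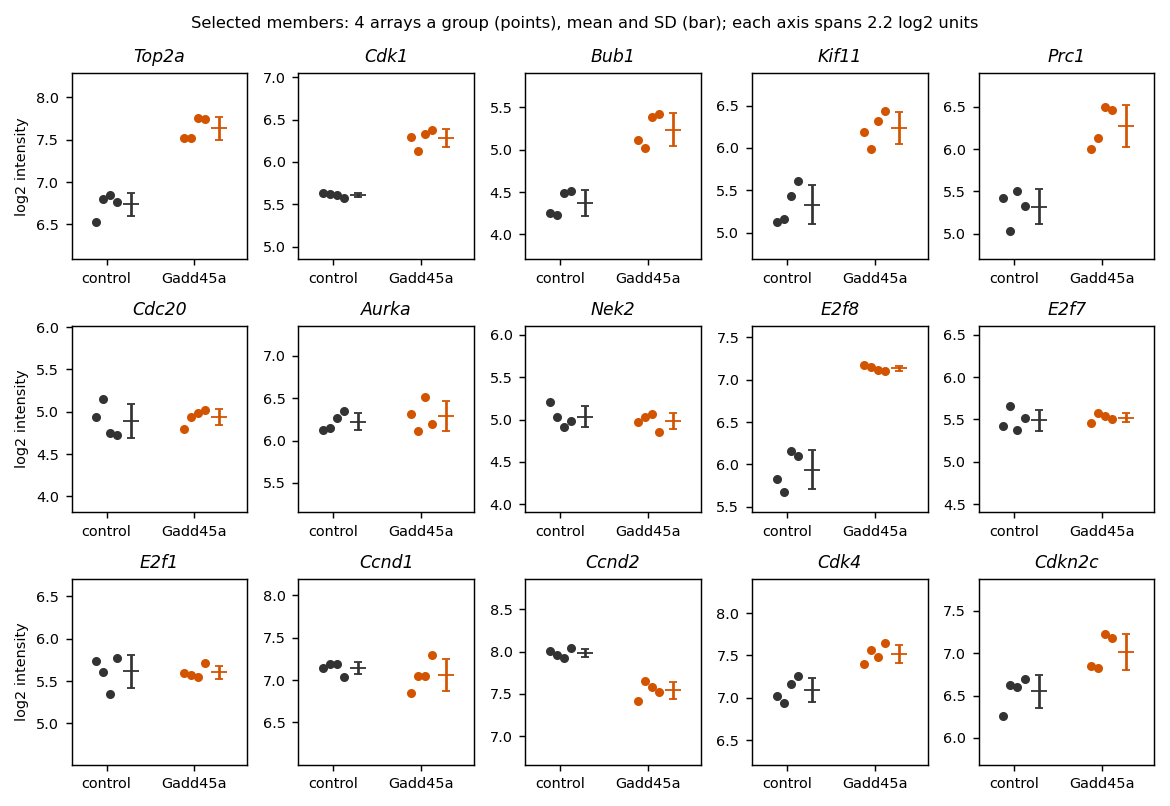
Log2 intensity (vertical axis, with the same span in every panel) of 15 selected genes on the 4 control arrays (dark points) and 4 Gadd45a arrays (orange points), with the group mean and SD as bars beside them. The top row shows 5 mitotic genes whose groups are apart, and Cdc20, Aurka, Nek2, E2f7, E2f1 and Ccnd1 show groups that overlap.

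Cell cycle genes outside the 50 were followed in lists of their own. In 5 further lists 49 of 141 measured genes rose and 7 fell (34.8% and 5.0%, beside 10.8% and 10.3% of all probe sets), with a median of 0.20. The spindle, kinetochore and cytokinesis list held 25 increases and no decrease among 47 genes (median 0.31), led by the spindle protein Ckap2 (1.12, SE 0.20, limma adjusted p = 0.00367), the kinetochore subunit Cenph (0.90, SE 0.097) and Shcbp1 (0.88, SE 0.097), a binder of centralspindlin. In that list 8 rose with only brighter probe sets tested, and 14 to 22 without an array or a same-numbered pair. Of 29 genes of cohesin, condensin and the anaphase-promoting complex 8 rose and 2 fell, with the condensin subunits Smc2 (0.70) and Smc4 (0.68) and Ncapg2 (0.61) changing most. The 2 that fell were Anapc5 (-0.48), a subunit of the anaphase-promoting complex, and Pttg1 (-0.45), the securin that holds back anaphase. Of 22 other Cdk regulators 7 rose and 3 fell (31.8% and 13.6%, median -0.05). Cdkn1a, the inhibitor p21, rose by 1.71 (SE 0.077), the inhibitor gene Cdkn1c by 0.85 (SE 0.074), and the stress-induced kinase gene Plk2 by 0.81 (SE 0.081).

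Of 16 genes of the Rb, E2f and DREAM machinery 3 rose and 2 fell (18.8% and 12.5%, beside 10.8% and 10.3% of all probe sets). The retinoblastoma gene Rb1, which holds E2f factors silent, rose by 1.11 (SE 0.093, limma adjusted p = 9.57e-05), E2f6, a repressor, fell by 0.54, and E2f5 rose by 0.36. Mybl2, the gene of B-Myb, did not pass (-0.032, SE 0.11, limma adjusted p = 0.846). Foxm1 is not among these 16 genes. Of 27 DNA replication genes 6 rose and none fell (median 0.17), and the count was 3 without Gadd45a 4. The primase gene Prim1 (0.43) and the helicase subunits Mcm3 (0.41) and Mcm6 (0.41) led, each under 0.5 log2 units. The share of replication genes that rose, 22.2%, stands beside 10.8% over all probe sets and 53.2% in the spindle, kinetochore and cytokinesis list, and these shares were not tested against each other.

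**Figure D5:**
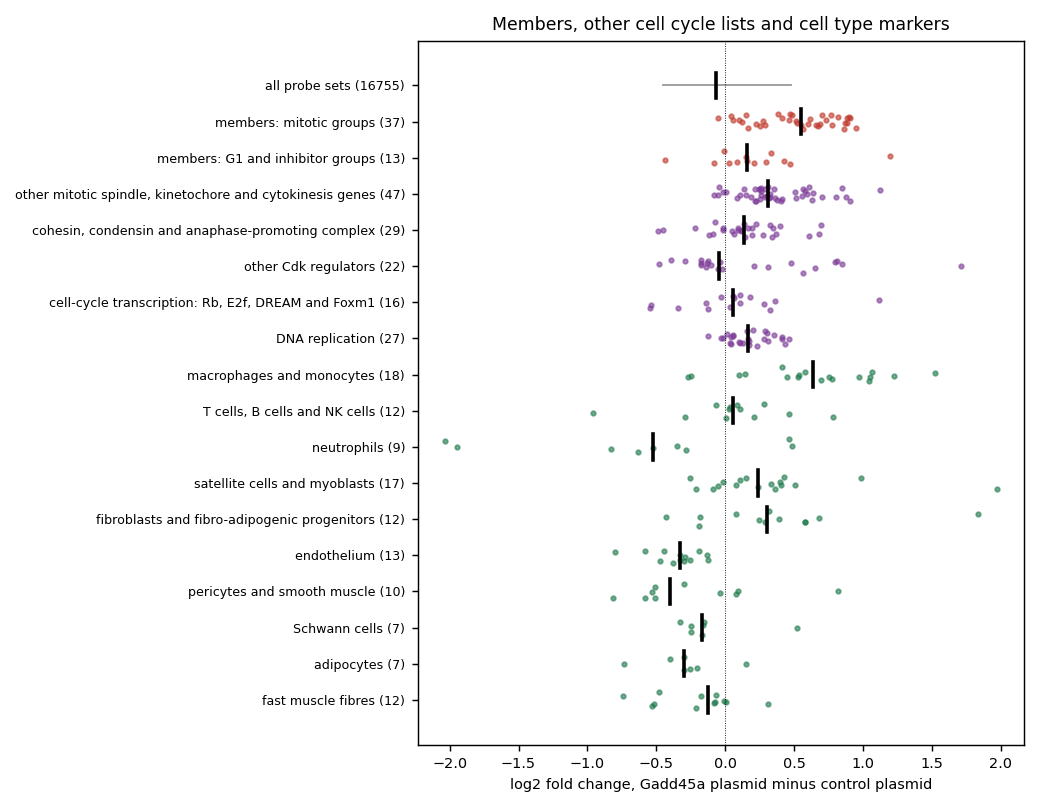
Log2 fold change (horizontal axis) of every measured gene in the lists named at the left, with the number of genes in brackets; red marks the 50 cell cycle genes, purple the other cell cycle lists and green the cell type markers, black bars are medians, and for all probe sets the grey line spans the 5th to the 95th percentile. The medians were 0.55 for the mitotic genes, 0.31 for the other spindle genes, 0.17 for DNA replication, 0.64 for macrophages and -0.33 for endothelium.

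Markers of several cell types of muscle differed between the same groups. As a background, 10.8% of all probe sets rose and 10.3% fell. Of 18 measured macrophage and monocyte genes 12 rose, led by Gpnmb (1.52), C1qa (1.23) and Cd84 (1.06), and 1 fell (Marco, -0.27). The summed linear intensity of the 18 ran from 5519 to 6021 on control and from 8686 to 10130 on Gadd45a arrays. Of the 18, Cd163, Cd14 and Marco were below the median brightness of all probe sets. Of 17 satellite cell and myoblast genes 7 rose and none fell, with a summed intensity of 2393 to 2784 and then 3150 to 3286. Des and Myf6 weigh most in this sum, being the brightest of the 17 with control means of 10.02 and 9.07. The largest changes were in the fusion gene Mymk (1.97) and the regulators Myog (0.99) and Myf6 (0.50). Vcam1 (0.42), Msc (0.41), Itga7 (0.36) and Megf10 (0.39) rose as well. Pax7 (0.11), Pax3 (-0.21), Myf5 (0.15), Myod1 (0.33) and Cdh15 (-0.090) did not pass. Neither did Chrdl2 (-0.26), Calcr (-0.020), Sdc4 (-0.051), Heyl (0.24) and Des (0.075). Which cells made these transcripts was not tested. Pax7, Pax3, Myog, Chrdl2, Calcr and Megf10 were below the median brightness. Of 12 fibroblast genes 8 rose, led by Postn (1.83), Dpt (0.68) and Col3a1 (0.58), and 1 fell (Cd34, -0.43). Dcn (-0.19), Pi16 (-0.19) and Thy1 (0.081) did not pass. The summed intensity of the 12 was 5628 to 6188 and then 7621 to 8385. The part of these cells in the mitotic increases was not tested.

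Endothelial, mural, fat and fibre genes held more decreases than increases, while 10.8% of all probe sets rose and 10.3% fell. Of 13 endothelial genes 10 fell and none rose, led by Flt1 (-0.80), Tek (-0.58) and Esam (-0.47), with a summed intensity of 1797 to 1984 on control and 1434 to 1508 on Gadd45a arrays. Of 10 pericyte and smooth muscle genes 1 rose (Acta2, 0.82) and 5 fell, Myh11 (-0.81) and Rgs5 (-0.58) most, with a summed intensity of 3216 to 3837 and then 3061 to 3318. Among 12 genes of T cells, B cells and NK cells Cd3g (0.78) and Cd3e (0.46) rose (16.7%) and Gzmb (-0.96) fell (8.3%). The summed intensity of this list was 867 to 935 and then 872 to 1106. Among 9 neutrophil genes Csf3r (0.47) rose (11.1%) and Mpo (-0.83) and Cxcr2 (-0.63) fell (22.2%), with sums of 884 to 1602 and then 448 to 1492. S100a8 (-2.03) and S100a9 (-1.95) had the largest differences of the 9 but did not pass (limma adjusted p = 0.0870 and 0.0780). S100a8 read 7.49 to 8.61 on control arrays, 8.59 on Gadd45a 3 and 4.18 to 6.49 on the other Gadd45a arrays. For S100a9 these values were 8.50 to 9.42, 9.29 and 5.58 to 7.70. Of 7 adipocyte genes 4 fell, Adipoq (-0.73), Fabp4 (-0.40) and Cidec (-0.30) most (656 to 665, then 518 to 543). Of 7 Schwann cell genes Egr2 (0.52) rose and Pmp22 (-0.33) fell, 14.3% each (634 to 733, then 605 to 651). Of 12 fast fibre genes 4 fell and none rose, Pygm (-0.74), Actn3 (-0.54) and Ckm (-0.51) most (41664 to 45627, then 38405 to 39996).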

How the data were processed

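RNA of 8 samples, 4 per group by the sample titles, was measured on 1 array each. The authors deposited log2 intensities, 1 for each probe set; per the submitters' processing notes they used GCOS and RMA with the mm9 build, and no versions are given. RMA adjusts for background, makes the arrays' distributions equal and combines probes, which shrinks differences of dim probe sets. Among 16755 probe sets, 14996 carried a single symbol in the platform annotation, 1019 carried several and 740 none, and no value was missing.

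The comparison was fitted with limma 3.58.1 under R 4.3.3, two-sided and without a block, over all probe sets, and p-values were adjusted by Benjamini-Hochberg (threshold 0.05). The fit was tested on simulated data. It was repeated with sample number as block, with quantile, median or cyclic loess normalization, with brighter probe sets only, with a trended robust variance, with array weights, with probe sets of a gene averaged, and without each array or same-numbered pair. The members and lists were chosen with earlier results of these data known, so lists are described by counts and medians. Within each role up to 4 genes with the largest changes that passed are given on every array, and up to 3 from each other list. Further genes given on every array, Anapc5, Pttg1, Mybl2, Atf4, the cell type genes named beyond 3 in a list and the promoters shown were chosen after their values were seen. Motifs were searched with Python 3.11.15.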

Additional observations from a re-analysis of the deposited data

Results flagged for a closer look

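Among 192 groups of 4 arrays examined for most of the genes named above, 2 held an array far from the other 3. Cxcr2, the neutrophil chemokine receptor, read 5.77 on Gadd45a 3 against 5.15 to 5.19 on the other Gadd45a arrays. Of the 9 neutrophil genes, Mpo, S100a8, S100a9, Camp and Ltf were also highest on Gadd45a 3 among the Gadd45a arrays. Csf3r and Elane were lowest there, and Retnlg lay in between. The summed intensity of the neutrophil list was 1492 on Gadd45a 3 and 448 to 695 on the other Gadd45a arrays. Camp was not among the genes examined. The Schwann cell gene Pmp22 read 8.39 on control 2 against 8.11 to 8.15 on the other controls. Chance alone flags about 1 in 20 groups, and no mitosis or cell cycle member was among them.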

How the results depend on the processing

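The count of cell cycle members that rose (31) was 11 when only probe sets above the median brightness were tested, because 31 of the 50 members lie below it; under the other 7 alternatives that kept all arrays it was within 1.5 times of 31. It ran from 23 to 29 over the 12 fits without an array or a same-numbered pair, and the 1 decrease, Ccnd2, kept its call in every fit. Of the 32 members that passed, 23 passed in every fit that tested them; Plk1, Kif22, Kif4, Cdk2 and Cdkn2c lost their calls without single arrays as described, and Spc25, Nusap1, Racgap1 and Cdk4 lost theirs without 1 or more pairs (adjusted p = 0.0562 to 0.0859). The members' median ran from 0.39 to 0.49 without an array or pair. Over the other cell cycle lists together, increases numbered 30 with only brighter probe sets and 28 to 45 without an array or pair, and decreases 4 to 7; for DNA replication alone increases ranged from 1 to 6. Over all probe sets, 1055 to 1666 rose and 821 to 1516 fell without an array or pair. Among members that did not pass, Nek2 read 0.035 with quantile normalization and 0.057 with cyclic loess, and E2f1 0.038 and 0.051 with these and 0.010 with median centring. Without an array or pair, values ran from -0.059 to 0.22 for Cdc25b, -0.041 to 0.13 for Cdc20, -0.018 to 0.13 for Aurka, -0.12 to 0.011 for Nek2, -0.10 to 0.042 for E2f1 and -0.022 to 0.080 for E2f7. Deviations of same-numbered arrays correlated at 0.053, 0.045, 0.085 and 0.097, each array number correlating best with its own, which is a hint from the data that the design does not state; with the replicate block 29 members rose and 1 fell, Plk1 and Kif22 losing their calls. Dim signal limits these values, since most members lie low on the arrays, and RMA compresses changes there.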
